A study of Mus musculus with 6 samples.

Results

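The enzymes that write, keep and remove DNA methylation were followed through CUT&RUN data from mouse prospermatogonia, the fetal male germ cells that precede spermatogonia. The group holds 10 genes of 21738 protein-coding genes in the annotation: Dnmt1, Uhrf1, Dnmt3a, Dnmt3b, Dnmt3c, Dnmt3l, Tet1, Tet2, Tet3 and Tdg. An interval was taken for a gene when the transcript named in its deposited annotation, or the transcript of its nearest promoter, belonged to that gene. This gave 28 of the 75330 intervals in 4 lists. Of these, 2 were among 7861 TAF4b peaks of replicate 1, 0 among 848 TAF4b peaks of replicate 2, 25 among 64891 H3K4me3 regions of replicate 1 and 1 among 1730 H3K4me3 regions of replicate 2. One of the 28, in Dnmt3a, carries a transcript identifier absent from the annotation used here and was assigned by position, a choice made after it had been seen.

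CUT&RUN releases the DNA around an antibody-bound antigen with a tethered nuclease. The 6 samples form 3 antibody groups with 2 replicates each: TAF4b, which is part of the promoter-binding complex TFIID, H3K4me3, a histone mark of active promoters, and IgG, the control antibody. All groups share one source: male cells at E16.5 (embryonic day), labelled C57BL/6 and wild type for Taf4b, from matings of mice homozygous for the Oct4-EGFP transgene Pou5f1tm2Jae. Gonads were trypsin-dissociated and cells were sorted live by green fluorescence, so cell identity rests on the Oct4 reporter. The number of embryos behind each sample, and whether replicates came from separate litters, are not given in the labels. The 2 IgG libraries were not analysed here, and no mutant or second stage enters, so each value below describes 1 library and no test between conditions was possible.

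DNA methylation at CpG dinucleotides is copied to new strands by DNMT1, which UHRF1 brings to half-methylated sites. It is laid down anew by DNMT3A, DNMT3B and, in rodents, DNMT3C, with DNMT3L as a catalytically inactive partner. TET enzymes oxidise methylcytosine, and TDG excises the products for base repair. Prospermatogonia are the cells in which the paternal pattern, imprints and retrotransposon silencing included, is laid down after the erasure of fetal germ cells. The DNMT3 proteins are known to bind histone H3 tails that lack methylation at lysine 4, so CpG-rich promoters with H3K4me3 usually stay unmethylated.

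The sequences that the results turn on are given first, from GRCm39 on the + strand. The first pair are the DNA under the only TAF4b peaks of the group. The peak of Uhrf1 (chr17:56611152-56611294) is shown as the 52 bases of it before the exon, at chr17:56611153-56611204, and that of Dnmt3a in full, at chr12:3941478-3941620. Capitals mark matches to the GC box (GGGCGG) and the CCAAT box (CCAAT).
Uhrf1 peak: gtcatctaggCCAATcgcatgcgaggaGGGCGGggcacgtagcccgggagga
Dnmt3a peak: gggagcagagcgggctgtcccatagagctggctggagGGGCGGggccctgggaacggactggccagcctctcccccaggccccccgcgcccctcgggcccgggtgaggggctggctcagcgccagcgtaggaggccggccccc

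The next set shows CpG sites in capitals, because the starts of the group ranged from CpG-rich to without any CpG site. Dnmt3b and Dnmt3c, a rodent gene that arose as a copy of Dnmt3b, are shown by the 150 bases before their annotated starts, at chr2:153491173-153491322 and chr2:153538422-153538571. These stretches hold 15 and 0 CpG sites. The last sequence is the stretch before an inner exon of Dnmt3a, at chr12:3899434-3899634, within the one location listed by both H3K4me3 replicates. It holds 2 CpG sites.
Dnmt3b before the start: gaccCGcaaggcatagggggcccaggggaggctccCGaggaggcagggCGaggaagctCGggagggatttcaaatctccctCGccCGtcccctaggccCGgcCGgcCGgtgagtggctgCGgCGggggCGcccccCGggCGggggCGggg
Dnmt3c before the start: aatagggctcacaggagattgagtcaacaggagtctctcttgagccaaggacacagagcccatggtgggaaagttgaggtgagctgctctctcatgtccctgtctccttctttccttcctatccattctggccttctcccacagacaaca
Dnmt3a before the inner exon: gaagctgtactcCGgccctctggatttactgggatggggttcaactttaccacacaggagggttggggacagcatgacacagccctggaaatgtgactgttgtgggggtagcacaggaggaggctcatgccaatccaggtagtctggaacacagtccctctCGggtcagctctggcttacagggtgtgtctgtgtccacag

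The score printed beside each interval is the authors' peak score. Its scale is not stated, so it was used only to rank intervals within 1 list, and depth is unknown because read totals are not given. TAF4b scores ran from 6.45 to 266.5 (median 14.9) in replicate 1 and from 40.5 to 7440.8 (median 60.7) in replicate 2. H3K4me3 scores ran from 16.4 to 2216.5 (median 46.2) and from 96 to 2395.2 (median 111.2). As a check of cell type, promoter peaks of TAF4b replicate 1 were listed at 5 of 10 germ cell markers (Ddx4, Dazl, Dnd1, Mael and Sox2), and at 0 of 5 Sertoli, 0 of 5 Leydig, 0 of 4 endothelial, 0 of 4 macrophage and 0 of 4 interstitial markers, although a peak lay within 1000 bp of a start of the interstitial marker Nr2f2. Replicate 2 listed none of them. The share over all protein-coding genes was 22.7% in replicate 1, at which 0 of 4 or 0 of 5 says little about any one cell type. Promoter-classed H3K4me3 regions of replicate 1 were listed at 5 of 10 germ cell, 4 of 5 Sertoli, 1 of 5 Leydig, 2 of 4 endothelial, 0 of 4 macrophage and 4 of 4 interstitial markers, beside 44.0% of all genes. Regions of any class reached within 1000 bp of a start at 9 of 10 germ cell markers, at 4 of 5 Sertoli, 1 of 5 Leydig, 3 of 4 endothelial, 1 of 4 macrophage and 4 of 4 interstitial markers, beside 71.8% of all genes. The germ cell gene without a region within this distance was Nanos2, and among the somatic genes Amh, Cyp11a1, Cyp17a1, Star, Hsd3b1, Cdh5, Adgre1, Csf1r and Cd68 had none. The part of other gonadal cells in the H3K4me3 list was not tested.

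TAF4b was listed at the promoters of 1 maintenance gene, Uhrf1, and 1 de novo gene, Dnmt3a, in replicate 1 and at none of the group in replicate 2. In replicate 1 the 2 of 10 genes compare with 22.7% of all protein-coding genes, and in replicate 2 the 0 of 10 compare with 3.12%. With any peak reaching within 1000 bp of a start counted, the numbers were again 2 and 0, beside 28.9% and 4.14%. The share of the group with a TAF4b peak was therefore near that of all genes. A listed interval gives no separation between binding in more cells and stronger binding per cell.

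H3K4me3 was far more widespread across the group. In replicate 1, 8 of 10 genes had a region classed as promoter (44.0% of all genes) and 9 of 10 had a region within 1000 bp of a start (71.8%). In replicate 2, 1 of 10 had either, beside 4.14% and 7.25% of all genes. That gene was Dnmt3a, and Dnmt3c was the one gene without a replicate 1 region near a start. Among the 9 genes with H3K4me3 near a start, 2 also had TAF4b there in replicate 1, beside 39.5% of all such genes, and 0 had it in replicate 2, beside 5.69%.

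**Figure D1:**
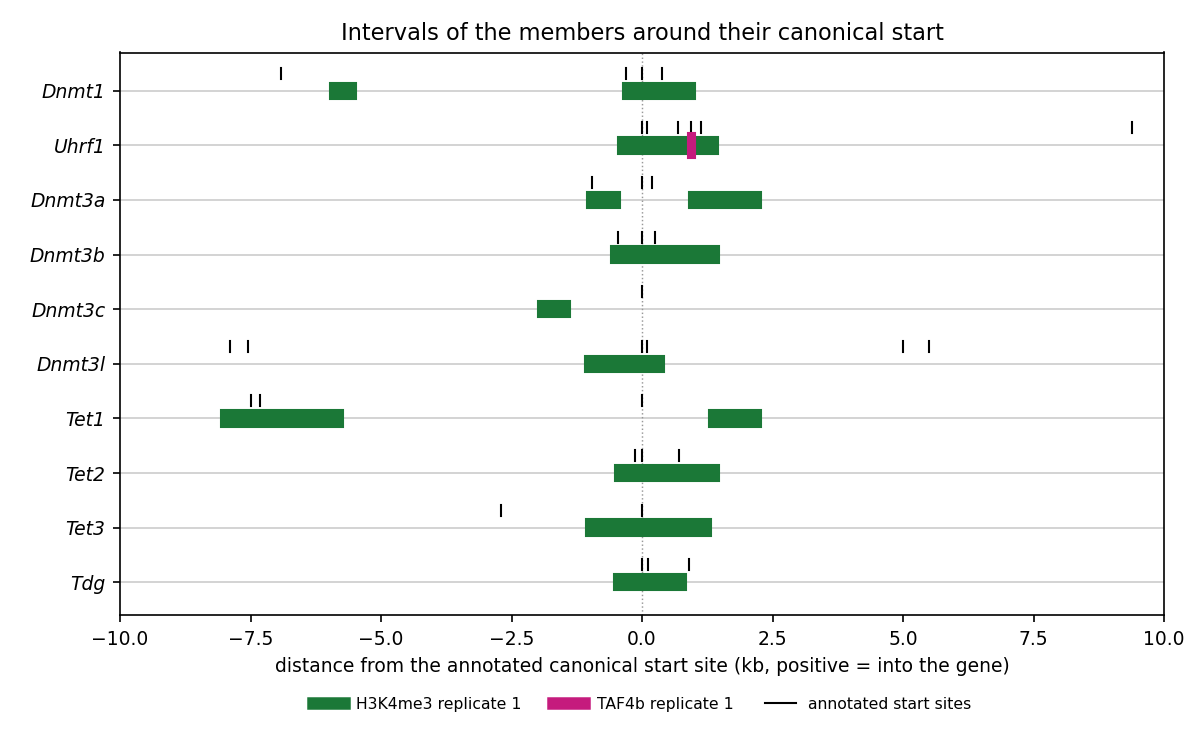
Intervals of replicate 1 within 10 kb of the canonical start of each gene, with distance in kb on the x axis, positive into the gene. Green bars are H3K4me3 regions, the magenta bar is the TAF4b peak of Uhrf1 and short ticks are annotated start sites. In 7 of 10 genes a region spans the canonical start, and in Dnmt3a, Dnmt3c and Tet1 it does not.

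Position relative to the annotated starts divided the 25 H3K4me3 regions of replicate 1. Of these, 13 covered a start of their own gene, in 9 genes, and 12 did not. Scores of the covering regions ran from 31.3 to 216.1 with a median of 87.9, and those of the others from 19.4 to 86.5 with a median of 55.9. Covering regions were 639 to 2400 bp wide (median 1521) and the others 500 to 1475 bp (median 883), so the ranges overlapped. Of the 13 covering regions, 8 were classed as promoter and 5 as intron. Of the intron-classed ones, 4 had their centre 127 to 414 bp past the start used in the list. For the other, chr12:3884059-3884731 in Dnmt3a, the deposited distance of -15240 bp refers to another start than the one it covers. The highest-scoring region near a start had a median score of 107.3 over the 9 genes and 92.4 over the 15598 protein-coding genes with one. The median width was 1914 and 1407 bp, and 6 of 9 genes lay above the all-gene median score. For Dnmt3l the region used is that near its upstream start, which the list names for another gene.

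**Figure D2:**
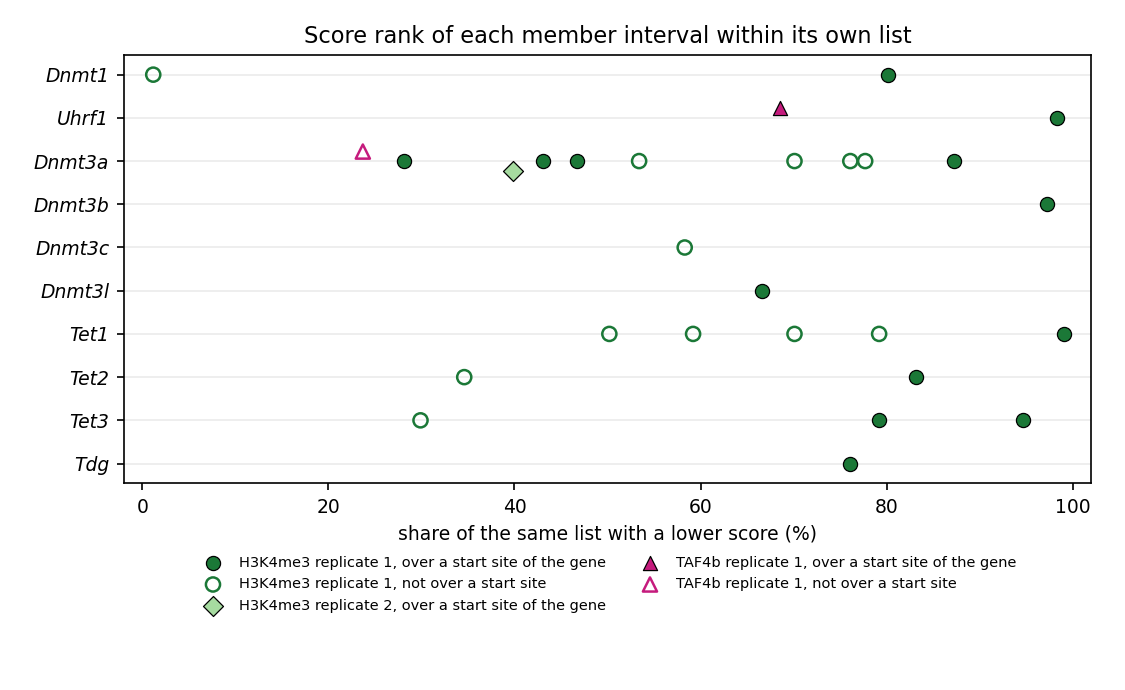
Each interval of the group placed by the share of its own list that has a lower score (x axis, percent), with 1 line per gene. Filled symbols cover a start of the gene and open symbols do not. The regions of Tet1, Uhrf1 and Dnmt3b over their starts lie at 99.1%, 98.3% and 97.2% of the H3K4me3 replicate 1 list.

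Among the maintenance genes, Uhrf1 carried both marks. Its TAF4b peak at chr17:56611152-56611294 had a score of 19.9, above 68.5% of its list. Its deposited distance was -90 bp, counted from the start used in the list. It covers 2 annotated starts, at 56611205 and near it, which belong to a second group of Uhrf1 starts (starts within 500 bp of each other are taken as one group), and it begins 877 bp inside the gene from the canonical start at 56610275. The share of signal in the peak centre, which the authors' list gives as a focus ratio, was 0.642, against a list median of 0.644. The H3K4me3 region at chr17:56609809-56611723 was 1914 bp wide, had a score of 186.3 (rank 1067 of 64891), contained the TAF4b peak and covered 10 annotated starts. The second start group had a CpG observed-to-expected ratio of 0.9 in 501 bases, against 0.505 around the canonical start.

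Uhrf1 was absent from both replicate 2 lists. The TAF4b peak of replicate 2 nearest to an annotated Uhrf1 start lay 7.7 kb from it, at the promoter of Kdm4b, a histone demethylase. That start, at 56625026, belongs to a transcript without a coding sequence. Of the replicate 1 promoter peaks in the same score decile (17.9 to 19.9), 5.81% of 551 overlapped a replicate 2 peak, and of H3K4me3 promoter regions in the top decile, 16.3% of 3175 did. Most intervals with scores like those of Uhrf1 were thus not listed again in the smaller replicate.

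Dnmt1, the maintenance methyltransferase, had H3K4me3 but no TAF4b peak. The region at chr9:20863259-20864644 scored 87.9, above 80.1% of the list, and covered 10 starts, the canonical one at 20864275 included. A second region at chr9:20869756-20870256 had a score of 19.4, above 1.17% of the list. It lies within 1000 bp of the upstream start at 20871184 without covering it. That start gives a protein of 1501 codons against 1627 from the main group, the shorter form known from oocytes, and its CpG ratio was 0.113 against 0.65. The TAF4b peak of replicate 1 nearest to any annotated Dnmt1 start lay 10.3 kb from it, at the promoter of the translation factor gene Eif3g. The start meant, at 20820275, is that of a transcript without a coding sequence and not the canonical one.

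Among the de novo genes, Dnmt3a held the most intervals, 8 in H3K4me3 replicate 1, 1 in H3K4me3 replicate 2 and 1 in TAF4b replicate 1. Counting by nearest transcript, 7 regions of replicate 1 belonged to it, and 2.31% of the genes with a region had as many or more. The gene spans 108 kb, against a median of 19.2 kb, and the number of regions was not adjusted for length. Tet1, of 104 kb, came next with 5 regions (5.93% of genes had as many or more).

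The TAF4b peak of Dnmt3a did not lie at the canonical start. It lies at chr12:3941478-3941620, with a score of 10.4, above 23.7% of its list, and a deposited distance of -179 bp. Its end is 108 bp before the start at 3941728, which is 84.8 kb inside the gene from the canonical start at 3856963. This internal start opens transcript Dnmt3a-204 of 689 codons, against 908 codons from the canonical transcript. The shorter protein is known as DNMT3A2, the main form of embryonic stem cells and fetal germ cells. The RefSeq promoter set has a start of its own here, at 3941744.

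The strongest H3K4me3 region of Dnmt3a was at the same place. The region at chr12:3941177-3942866 had a score of 107.3, above 87.3% of the list, was 1689 bp wide and covered both the TAF4b peak and the internal start. It is the interval assigned by position. Its deposited class is intron of a transcript identifier not in the annotation used here, and its deposited distance points to 3941744, the RefSeq start. By contrast, the canonical start lay in a gap, 415 bp beyond the end of a region at chr12:3855909-3856548 (score 41.7) and 904 bp before a region at chr12:3857867-3859247 (score 80.5). The 501 bases around the canonical start had a GC content of 82.6% and 81 CpG sites, the highest of the 10 canonical starts in both. The part of base composition in this gap was not tested. The noncoding gene Gm60243 starts within 1000 bp of the second of these regions.

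**Figure D3:**
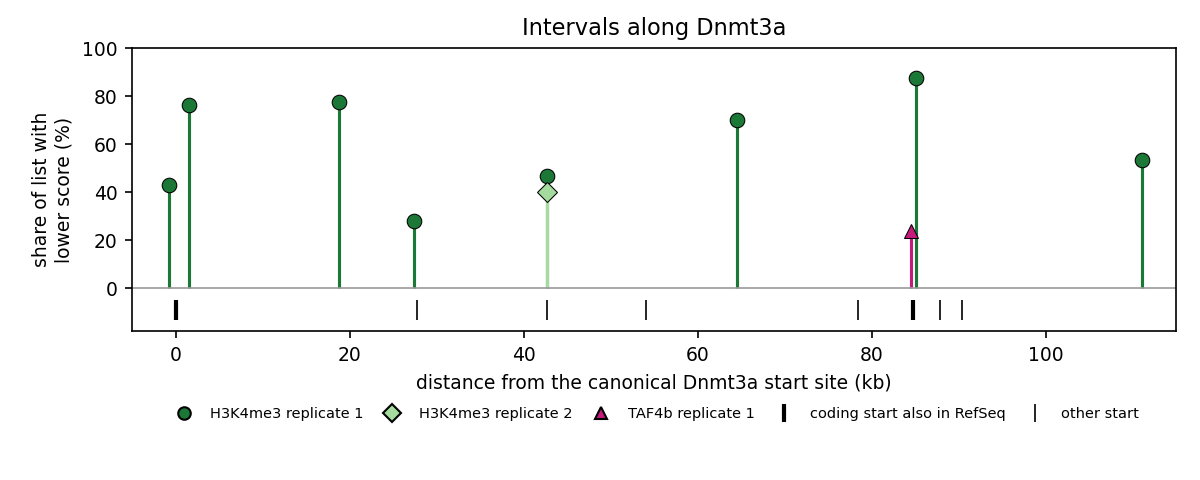
Intervals along Dnmt3a by distance from the canonical start (x axis, kb) and by the share of their own list with a lower score (y axis, percent). Ticks below the line are annotated start sites, the thick ones also in RefSeq. The highest H3K4me3 symbol and the TAF4b symbol stand at the internal start, 84.8 kb from the canonical one.

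Dnmt3a also held the one region found with both H3K4me3 replicates. Replicate 2 listed chr12:3899434-3899934 with a score of 111.2, above 39.8% of its own list, and replicate 1 listed chr12:3899234-3900044 with a score of 44.7, above 46.7%. Both are classed as promoter because transcript Dnmt3a-214, which is annotated for nonsense-mediated decay, begins there at 3899635. The same base opens exon 3 (chr12:3899635-3899739) of the canonical Dnmt3a transcript, so the location is an exon boundary as well as a start. The replicate 2 region begins 42.5 kb inside the gene from the canonical start. The last printed sequence ends at that boundary. Of replicate 1 promoter regions in this score decile (40.2 to 46.2), 2.72% of 771 overlapped a replicate 2 region.

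The other Dnmt3a regions of replicate 1 lay in introns or beyond the gene. They were chr12:3875182-3876330 with a score of 83.5, chr12:3884059-3884731 with 31.3 over the start at 3884708, chr12:3920718-3922193 with 70.1 and chr12:3967632-3968383 with 50.7. None of these overlapped a TAF4b peak.

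Dnmt3b and Dnmt3c, neighbours on chromosome 2, differed in the H3K4me3 list. Dnmt3b had a region of 2060 bp at chr2:153490731-153492791 with a score of 165.5, above 97.2% of the list, that covered 5 starts. Its centre lies 224 bp past the start used in the list and its class is intron, so Dnmt3b counts as lacking a promoter region by class. The starts of the noncoding genes Dnmt3bos and Gm75128 lie within 1000 bp of it. Dnmt3c, which methylates promoters of young retrotransposons in male germ cells, had one region, at chr2:153536573-153537202, with a score of 55.2 and a deposited distance of -1685 bp, classed as intergenic. Its only annotated start, at 153538572, was not covered. The nearest TAF4b peak of replicate 1 was at the promoter of Mapre1. It lay 44.5 kb from the start of Dnmt3c and 71.7 kb from the closest annotated start of Dnmt3b. That Dnmt3b start, at 153511290, opens a transcript without a coding sequence.

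Sequence likeness between the pair was checked, since reads from near-identical copies can be lost or shared. Over the whole Dnmt3c gene the longest match to Dnmt3b ran for 3039 bases at 93.9% identity. Within 500 bp either side of the Dnmt3c start the longest match was 220 bases at 80.9%, and within its H3K4me3 region 90 bases at 70.0%. How the authors placed reads that fit both genes is not given in the sources used here.

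Dnmt3l, the partner of the de novo enzymes, had a region at chr10:77884580-77886101 with a score of 65.6, above 66.6% of the list, over its canonical start at 77885676. Another region at chr10:77878825-77879866, with a score of 80.5, reaches within 1000 bp of the upstream Dnmt3l start at 77878121. The list names that region for the promoter of Aire, a gene on the opposite strand that overlaps the upstream start, so it is not counted among the 28. The start at 77891169, of a transcript of 126 codons, had no region. The nearest TAF4b peak of replicate 1 lay 69.6 kb from the closest annotated start of Dnmt3l.

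All 3 oxidation genes had H3K4me3 over a start and none had TAF4b. Tet1 had the highest-scoring region of the group, chr10:62721515-62723863, with a score of 216.1, rank 561 and a width of 2348 bp. It covers 2 starts, the RefSeq start at 62723103 included, and lies 5722 bp upstream of the start that the annotation calls canonical, at 62715793. That canonical start had a CpG ratio of 0.834, GC content of 43.9% and no region over it. Of its other 4 regions, chr10:62701100-62702098 (score 86.5) was classed as promoter for a transcript without a coding sequence, and those at chr10:62713515-62714505, chr10:62648468-62649508 and chr10:62748100-62748876 scored 70.1, 56.6 and 47.7.

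Tet3 had H3K4me3 regions over 2 groups of its starts. The region over the canonical start at 83433374, chr6:83432047-83434447, was the widest of the group at 2400 bp, with a score of 141.6 (above 94.7% of the list) and the class intron. The region chr6:83418447-83419422, with a score of 86.5, covers 3 further starts, one of them of a transcript with 1668 codons against 1803. The genes Gm67132 and B230319C09Rik start within 1000 bp of the first and the second region. The list gives B230319C09Rik as the gene nearest to the second region, so neither region can be assigned to Tet3 alone. A weaker region in the last exon, chr6:83344887-83345573, had a score of 32.8. Tet2 had a region of 1980 bp at chr3:133249294-133251274 with a score of 95.4 over 5 starts, where Gm42567 also starts within 1000 bp, and an intergenic one at chr3:133160062-133160693 with 35.8.

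Tdg, the excision gene, had a single region at chr10:82465076-82466461, with a score of 80.5 (above 76.1% of the list), over 8 starts. The start of Uqcc6, a gene of mitochondrial complex assembly, lies within 1000 bp of it, so the region cannot be assigned to Tdg alone. The TAF4b peak of replicate 1 nearest to an annotated Tdg start lay 117 kb from it. For Tet1, Tet2 and Tet3 that distance was 71.3, 380 and 47.9 kb. The Tdg and Tet2 starts meant here are of transcripts without a coding sequence.

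The relation between CpG content and H3K4me3 in the group depended on which starts were counted. Over all genes, the CpG observed-to-expected ratio in 501 bases had a median of 0.747 over the 56.3% of 21676 protein-coding genes with an H3K4me3 region of replicate 1 over the canonical start, and of 0.216 over the rest. The 7 genes of the group with such a region ran from 0.43 in Dnmt3l to 0.895 in Tdg, with Tet2 in the middle at 0.756. The 3 without one were Dnmt3c at 0, Tet1 at 0.834 and Dnmt3a at 0.996, so Tet1 lay above 4 of those 7 and Dnmt3a above all 7. Both Tet1 and Dnmt3a had regions over other starts. Over all 28 groups of coding starts of the 10 genes, the 13 with a region over at least 1 of their starts had a median ratio of 0.653 and the 15 without had 0.166, the order seen over all genes. In that count the Dnmt3a group that holds the canonical start is among those with a region, because other starts of it are covered. Within 2000 bp of a canonical start, regions covered a median of 1629.5 bp over the 10 genes and 1077 bp over all genes.

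**Figure D4:**
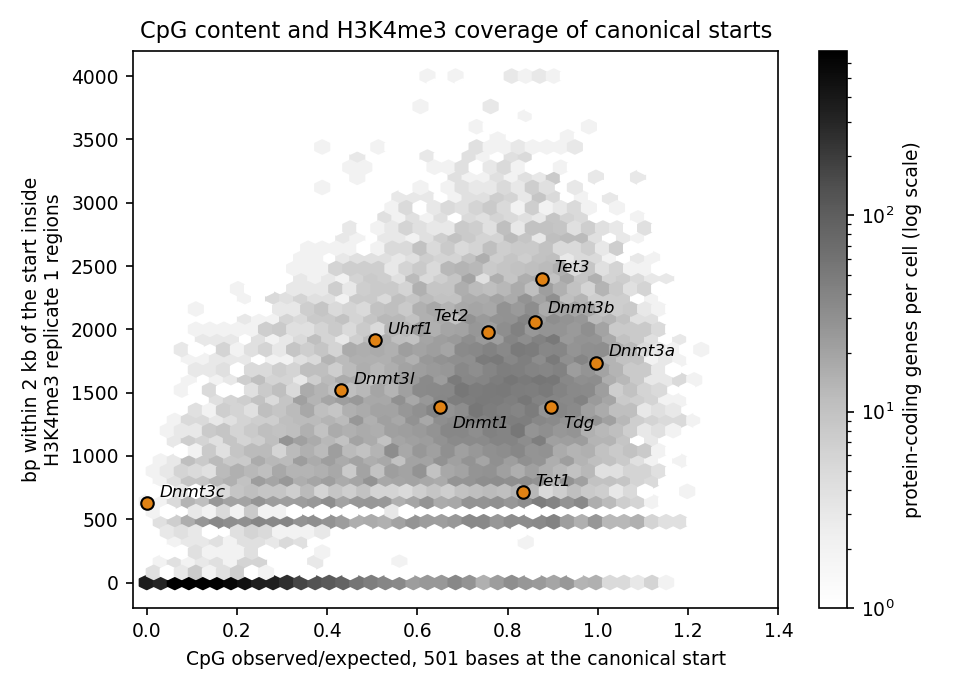
CpG observed-to-expected ratio in 501 bases at each canonical start (x axis) against the bases within 2000 bp of it that lie in H3K4me3 replicate 1 regions (y axis). Grey cells show all protein-coding genes on a log scale and orange points the 10 genes. Dnmt3c lies at a ratio of 0 and Tet3 has the most covered bases of the 10.

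Both TAF4b peaks of the group overlapped an H3K4me3 region of replicate 1, as did 86.3% of the 5756 TAF4b promoter peaks of that list. Neither overlapped a region of H3K4me3 replicate 2, which 8.36% of those peaks did. The Uhrf1 peak holds 3 GC boxes (GGGCGG) and 2 CCAAT boxes, both strands searched, and the Dnmt3a peak holds 1 GC box and no CCAAT box. A GC box was present in 56.9% and CCAAT in 37.9% of all replicate 1 promoter peaks of this width. In RefSeq promoters, which run from 250 bases before to 50 after a start, 12 of 16 entries of the group held a GC box, in 8 genes, against 35.7% of 32851 promoters. CCAAT was in 6 of 16, from Dnmt1, Tdg, Tet3 and Uhrf1, against 37.4%. The TATA sequence TATAAA was in 0 of 16, against 13.6%. The entries are not all separate windows, since those of Dnmt3a at chr12:3856730-3857029 and chr12:3856910-3857209 overlap. The other sequences searched were CCGGAAG (ETS), GCGCATGCG (NRF1), AAGATGGCG (YY1), TTTCGCGC (E2F), CACGTG (E box), TGACGTCA (CRE) and the GFY motif, and none of them matched in either peak. A match of letters is a description and not a binding site.

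**Figure D5:**
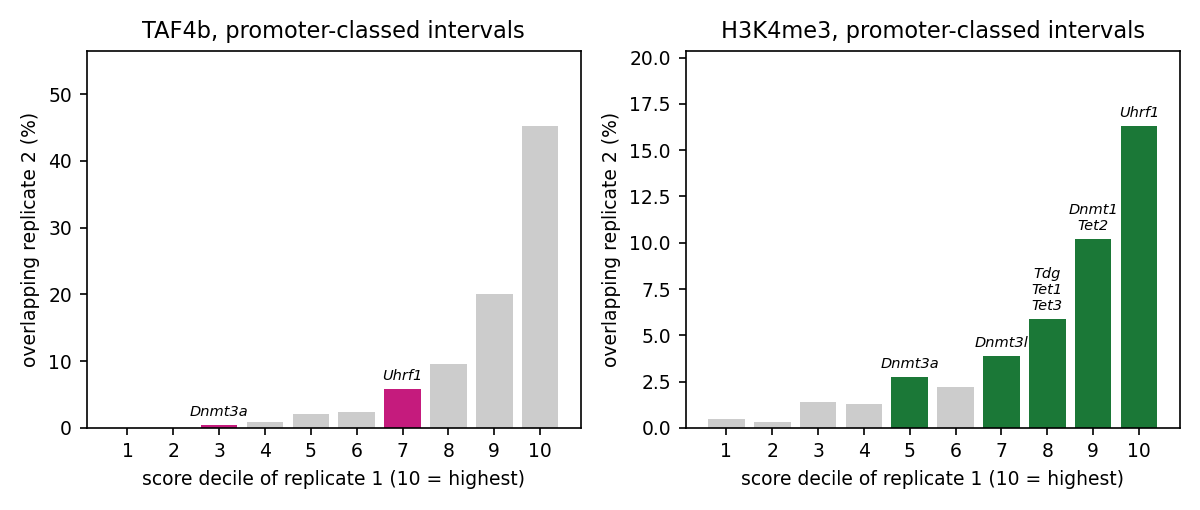
Share of replicate 1 promoter intervals that overlap an interval of replicate 2 (y axis, percent) by score decile of replicate 1 (x axis, 10 is highest), for TAF4b on the left and H3K4me3 on the right. Coloured bars hold intervals of the named genes. The Dnmt3a and Uhrf1 TAF4b peaks are in deciles 3 and 7, with 0.456% and 5.81% found again, against 45.2% in the top decile.

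The absence of the group from TAF4b replicate 2 can be set against this recovery. Both TAF4b peaks ranked below decile 9, in which 20.1% of promoter peaks were found again. In H3K4me3 replicate 2, recovery was at most 16.3% in any decile, and 5 promoter-classed genes of the group (Tdg, Tet1, Tet3, Dnmt1 and Tet2) lay in deciles where 5.88% to 10.2% were found again. The calls at Uhrf1 and Dnmt3a by TAF4b therefore rest on 1 library.

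The other genes of the pathway were read from a list of 55 that act beside the enzymes. A TAF4b promoter peak of replicate 1 was listed at 26 of 55 and one of replicate 2 at 5 of 55, beside the 22.7% and 3.12% of all genes. H3K4me3 promoter regions were listed at 42 and 2, beside 44.0% and 4.14% of all genes. By role, TAF4b replicate 1 was at 4 of 7 maintenance partners, 3 of 7 methyl-CpG readers, 4 of 7 histone modifiers upstream of de novo methylation, 5 of 12 base excision genes, 2 of 5 TET partners, 2 of 5 methyl donor genes, 4 of 7 genes of piRNA-directed methylation and 2 of 5 genes of imprint protection. The list was drawn up with earlier results of these data known, so its share supports nothing by itself.

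Genes with TAF4b in both replicates included Pcna, Mbd2, Kdm1b and Mtr. Pcna, the replication clamp that binds DNMT1, scored 32.3 in replicate 1 and 48.6 in replicate 2. Mbd2, a reader of methylated CpG, scored 24.3 and 64.8. Kdm1b, a demethylase of H3K4 known from oocyte imprinting, scored 38.7 and 56.7, and Mtr, methionine synthase, 36.2 and 60.7. Scores of the replicates are on separate scales. In replicate 1 the peaks of these 4 genes scored above both the Uhrf1 and the Dnmt3a peak.

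Each enzyme gene shared its combination of promoter intervals with others of the pathway. Dnmt1, Dnmt3l, Tet1, Tet2, Tet3 and Tdg had H3K4me3 replicate 1 alone, as did 25.4% of all genes and 20 of the 55, among them Ahcy, Apobec1, Cdca7, Cxxc4 and Dppa3. Uhrf1 had TAF4b and H3K4me3 of replicate 1, as did 13.2% of all genes and 17 of the 55, among them Cxxc5, Dmap1, Ehmt1, Gadd45a and Gadd45b. Dnmt3a had these and H3K4me3 replicate 2, as did 1.33% of all genes and, of the 55, Nsd1 and Ung. For Dnmt3a the intervals of the combination lie at different starts of one gene. Dnmt3b and Dnmt3c had none by class, as did 49.2% of all genes and 9 of the 55, among them Apex1, Ctcfl, Ehmt2 and Idh1.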

How the data were processed

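The 4 lists of intervals hold 1 library each and were used as deposited. Per the submitters' processing notes, bcl2fastq 2.20, Trim Galore 0.5.0, FastQC 0.11.5, Bowtie2 2.3.0, SAMtools 1.9, HOMER 4.10 and GRCm39 were used. Per the file headers, H3K4me3 regions were annotated with HOMER on GRCm39 and Ensembl 103. The TAF4b headers name no build. The threshold and control of peak calling are not given in the sources used here. The peak score is the authors' deposited value, with a scale that is not stated. The focus ratio of a TAF4b peak is a fraction deposited by the authors. Read totals are unknown, so no counting error could be given. Lists called at a lower depth or a stricter threshold hold fewer intervals.

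Transcript identifiers were matched to GENCODE M39 (98.6% to 99.2% matched). The deposited distance lay within 2 bp of that computed on GRCm39 for 58.4% and 53.1% of matched TAF4b peaks and 77.5% and 66.5% of H3K4me3 regions. An interval with an unmatched identifier was given to a gene when it lay inside it and its deposited distance pointed to within 100 bp of one of its starts. The main call was the deposited promoter class, and the other a reach within 1000 bp of a start. Coordinates are printed as deposited. Overlap was at least 1 bp. All 16 RefSeq promoters of the group, from 9 genes, matched GRCm39 once, and Dnmt3c had no entry. Python 3.11.15, pandas 2.3.3, pysam 0.24.0, samtools 1.23.1, BLAST 2.17.0 (e-value 1e-05) and matplotlib 3.10.9 were used, and the interval functions were tested on simulated data.

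Members and lists were chosen with earlier results of these data known. All 10 members were named, as were pathway genes with TAF4b promoter peaks in both replicates, up to 5 pathway genes per combination in alphabetical order and neighbours starting within 1000 bp of an interval. Some genes that this rule selects are not reported here by name. The Aire region was named after its value was seen. Alternatives were other call rules, the higher-scoring 50% of a list, equal list sizes, single replicates, other overlaps and another background. No test was run because genes and intervals are not replicates.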

Additional observations from a re-analysis of the deposited data

How the results depend on the processing

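Of 28 alternative values, 21 were counted as near the reported value and 7 as moved. Those counted as near include 10 against 8 genes and 16.6% against 22.7%. Some of the 21 could not move. TAF4b replicate 2 held no peak of the group to lose, and leaving out replicate 2 only repeats the replicate 1 count. The number 21 is therefore no measure of robustness. The TAF4b replicate 1 count of 2 genes became 1 (Uhrf1) in the higher-scoring 50% of the list, and 0 when the list was reduced to as many intervals as replicate 2. The same reduction took the H3K4me3 replicate 1 count from 8 to 1. Fewer intervals enter these alternatives by construction. Leaving out 1 replicate gave 0 to 2 genes for TAF4b and 1 to 8 for H3K4me3, with replicate 1 the library that decides both. Same-numbered lists were compared as a replicate block, and with the other-numbered H3K4me3 list in its place (no replicate block) the number of TAF4b peaks overlapping H3K4me3 fell from 2 to 0. The labels do not say whether libraries with one number share their cells. The consensus sequences present at the Dnmt3a peak rose from 1 to 2 in 300 bases around its centre, by an E box. Those at the Uhrf1 peak rose from 2 to 3, by an E2F match, which was counted as near. The H3K4me3 replicate 1 count was 9 by distance, 10 by nearest gene and 7 in the higher-scoring 50%. With all 32411 genes named in any list as background, the promoter shares were 16.6%, 2.28%, 38.1% and 3.17%. Unknown depth limits every statement on intervals missing from replicate 2.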
